A study of Homo sapiens with 9 samples.

Results

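Sucrase-isomaltase (SI), the brush-border enzyme that splits sucrose and starch fragments, and 9 further genes of the intestinal brush border were followed in Huh7 cells after silencing of 2 steps of ceramide synthesis. The genes were chosen by name: the disaccharidases SI, MGAM and LCT, the peptidases ANPEP, DPP4, MEP1A and TMPRSS15, the microvillus protein VIL1, the lectin LGALS4 and the transcription factor CDX2. Every probe set that the platform annotation maps to 1 of these symbols alone was taken, which gave 19 of the 54613 probe sets tested and 10 of the 19775 genes measured. SI was selected on its rise in these same arrays, so its values stand here as a description and were not tested. The other 9 genes, with 18 probe sets, were chosen by function, but with earlier results of these data known.

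Huh7 is a human hepatocarcinoma line. Its RNA was measured on 9 one-colour Affymetrix arrays, 3 of cells given siRNA against the serine palmitoyltransferase subunits (SPTLC123 siRNA), 3 of cells given DEGS1 siRNA and 3 of cells given scramble siRNA, which the labels call biological replicates. All cells received siRNA at 20 nM with a lipid reagent. The sample labels date the RNA to 72 h, but by the protocol, the same for all groups, a low-serum medium was added then and the cells were collected 24 h later. Serine palmitoyltransferase makes the first sphingoid intermediate of the pathway, and the desaturase DEGS1 turns dihydroceramide into ceramide.

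The brush border is the carpet of microvilli on absorptive cells of the small intestine. Its membrane carries disaccharidases and peptidases that finish digestion, and villin bundles the actin inside each microvillus. CDX2 is the homeodomain factor that sets intestinal identity, and SI is among the genes it is known to activate in intestinal cells. Adult liver expresses DPP4 and ANPEP on the canalicular membrane, whereas SI, MGAM and LCT are known as intestinal enzymes.

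Values are log2 of the deposited intensity, and ± after a difference is the SE of the limma fit over all 9 arrays. A probe set was called at a Benjamini-Hochberg adjusted p under 0.05 over all 54613 probe sets. Both silenced groups were compared with the same 3 scramble arrays, so these comparisons are not independent of each other. Of the silenced genes, SPTLC1 fell by 2.27 and SPTLC2 fell by 1.05 with SPTLC123 siRNA, and DEGS1 fell by 3.73 with DEGS1 siRNA (limma adjusted p = 3.42e-05, 0.00154 and 3.28e-05); values of the third subunit are not used here. Albumin (ALB) and alpha-fetoprotein (AFP), which define hepatocyte-derived cells, lay between 14.16 and 14.43 on every array. Replicate 3 of SPTLC123 siRNA and replicates 2 and 3 of DEGS1 siRNA stood apart by weak signal at the 5' end of control transcripts: their actin 3' minus 5' difference was 1.15, 1.31 and 1.25, against 0.40 to 0.56 on the other 6 arrays. Where a result below was lost without these 3 arrays, the value without them is given, and DEGS1 siRNA then has 1 array, taken to vary like the rest.

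The start regions of SI and MGAM are shown because these sister genes encode closely related enzymes, yet only SI was high in the silenced cells, as the values below show. Sequences are from RefSeq on GRCh38.p14 and run from 250 bases before to 50 bases after an annotated start. The SI window is chr3:165078447-165078746 on the minus strand and the MGAM window chr7:141995629-141995928 on the plus strand, and each lies inside the annotated span of its gene. Capitals mark TTTAT on either strand, the core that CDX factors bind.
SI: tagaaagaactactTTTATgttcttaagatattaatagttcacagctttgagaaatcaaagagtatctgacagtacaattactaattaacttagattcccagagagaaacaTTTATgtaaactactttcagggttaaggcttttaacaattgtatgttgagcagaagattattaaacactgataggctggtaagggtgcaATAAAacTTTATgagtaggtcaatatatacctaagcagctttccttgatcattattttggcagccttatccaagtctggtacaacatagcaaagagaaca
MGAM: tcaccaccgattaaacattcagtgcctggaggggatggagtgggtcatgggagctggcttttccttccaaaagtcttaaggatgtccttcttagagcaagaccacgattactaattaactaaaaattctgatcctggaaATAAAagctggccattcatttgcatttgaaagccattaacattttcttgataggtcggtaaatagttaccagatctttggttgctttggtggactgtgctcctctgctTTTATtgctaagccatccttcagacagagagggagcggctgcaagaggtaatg
The SI window held TTTAT 4 times, at 236, 139, 50 and 43 bases before the start, the last 2 of them close together on opposite strands. MGAM held it 2 times, at 111 and 3 bases before the start. Of all 35116 windows of this length in the table, 34.9% held at least 1 match, 14.4% at least 2 and 2.67% at least 4. The windows of CDX2 and TMPRSS15 held 2 matches each, and those of ANPEP, DPP4 and LGALS4 held none. LCT, VIL1 and MEP1A were not matched in the table.

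SI and MGAM also share a run of 14 bases, shown because it is the longest run common to both windows and contains GTTAAT (read here on the minus strand, in capitals), a half-site of HNF1 factors.
Shared run: attactaATTAACt
It starts 173 bases before the SI start and 144 bases before the MGAM start, and these 2 windows were the only ones of 35116 that held it on the same strand. GTTAAT on either strand occurred once in the SI window and 2 times in the MGAM window, and 6.88% of all windows held it. No GTTAAT match overlapped a TTTAT match in these 2 windows. A match is a description of the letters and not a binding site.

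SI stood at a low level in scramble cells and at a clearly higher one in both silenced groups. Its single probe set (206664_at; gene at chr3:164978898-165090232) read 7.28, 7.31 and 7.50 with SPTLC123 siRNA and 7.35, 7.24 and 7.31 with DEGS1 siRNA, against 4.26, 4.07 and 4.37 with scramble siRNA. All 6 silenced arrays lay far above all 3 scramble arrays, and the silenced groups overlapped each other. On the linear scale the intensity was 155.1, 158.29 and 180.83 with SPTLC123 siRNA and 163.38, 151.55 and 158.29 with DEGS1 siRNA, against 19.1, 16.82 and 20.67 with scramble siRNA. The differences from scramble were 3.13 ± 0.10 for SPTLC123 siRNA and 3.07 ± 0.10 for DEGS1 siRNA, or 8.74-fold and 8.39-fold. Among the increases of all 19775 genes, each by 1 probe set, SI ranked 2 with SPTLC123 siRNA and 1 with DEGS1 siRNA. The scramble level was under 4.86, the median over all probe sets, where background compresses a fold change, and adding 16 to each intensity before the log lowered the differences to 2.37 and 2.32. DEGS1 siRNA differed from SPTLC123 siRNA by -0.06 (95% interval -0.29 to 0.17).

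**Figure D1:**
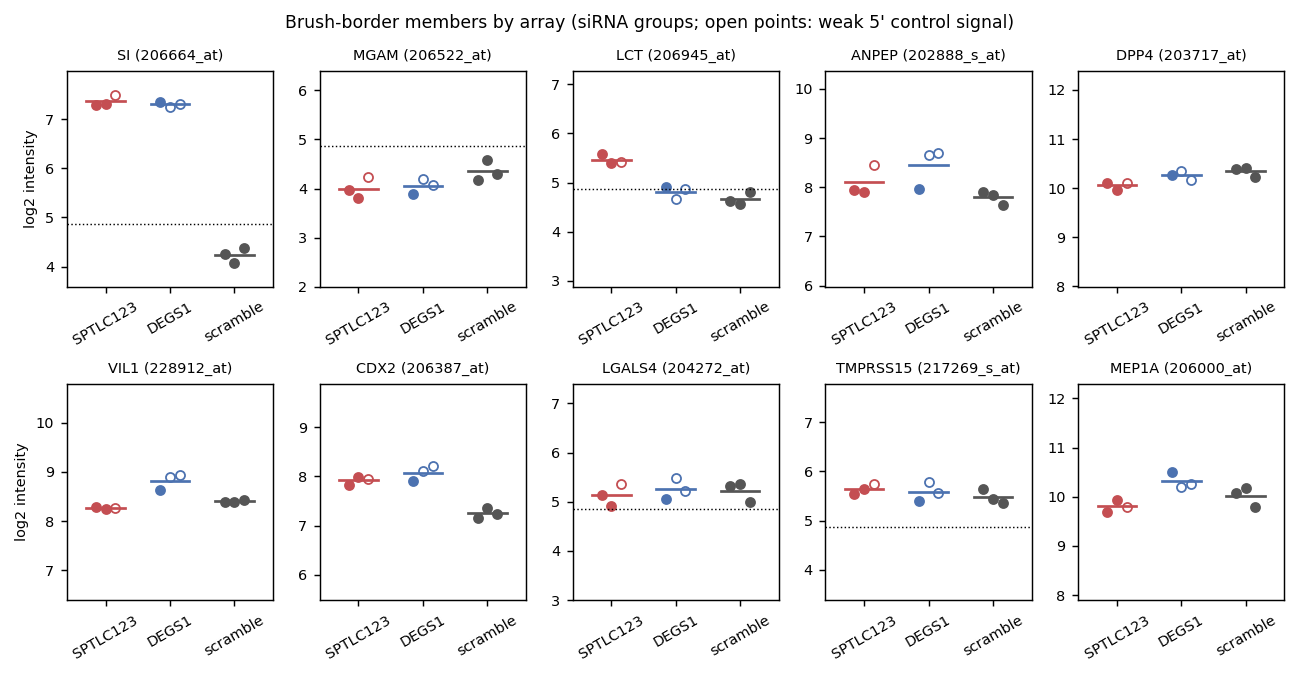
Log2 intensity of the brightest probe set of each of the 10 genes on every array, by siRNA group, with group means as bars, open points for the 3 arrays of weak 5' signal and a dotted line at the median of all probe sets (4.86). Every panel spans the same number of log2 units. SI is near 7.3 in both silenced groups and near 4.2 in scramble cells, and no other gene shows a shift of that size.

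Across the 18 probe sets of the other 9 genes, few followed. With SPTLC123 siRNA 2 of 18 (11.1%) were called, LCT and CDX2, both higher, against 4.52% of all probe sets called in either direction and 2.63% called higher. With DEGS1 siRNA 2 of 18 (11.1%) were called, CDX2 and VIL1, both higher, against 3.42% in either direction and 1.82% higher. The median difference of the 18 was -0.12 with SPTLC123 siRNA and 0.12 with DEGS1 siRNA, beside -0.02 and -0.00 over all probe sets. Members with several probe sets count more than once, and the DEGS1 count was 0 by limma without the 3 arrays of weak 5' signal (4 at an unadjusted p under 0.05). It was 6 without replicate 1 of DEGS1 siRNA and 1 without any other single array.

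**Figure D2:**
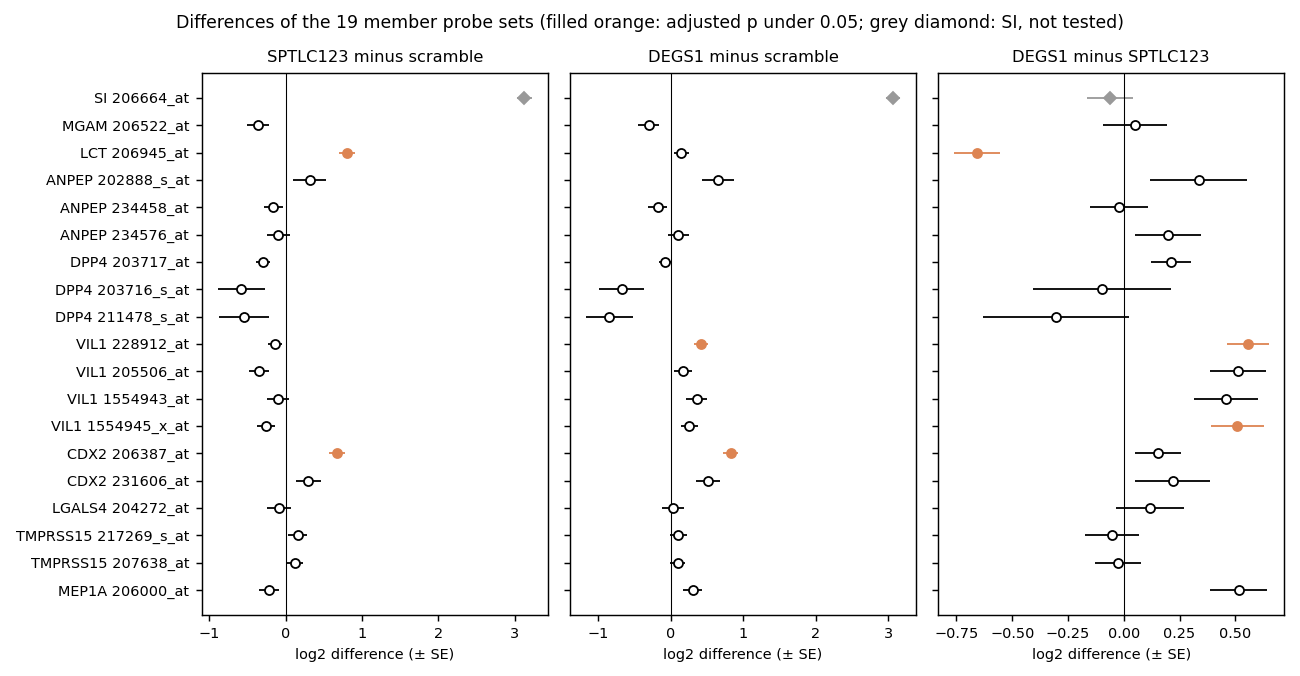
Log2 differences (± SE of the limma fit) of the 19 probe sets in the 3 comparisons, with filled orange points for adjusted p under 0.05 and a grey diamond for SI, which was not tested. SI lies at 3.13 and 3.07 against scramble, while the other 18 lie between -0.85 and 0.83.

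CDX2, the intestinal homeodomain factor (chr13), rose in both silenced groups. Its brighter probe set (206387_at) read 7.82, 7.99 and 7.94 with SPTLC123 siRNA and 7.90, 8.11 and 8.20 with DEGS1 siRNA, against 7.16, 7.35 and 7.23 with scramble siRNA. Both silenced groups lay wholly above scramble and overlapped each other. The rise was 0.67 ± 0.10 with SPTLC123 siRNA (limma adjusted p = 0.00747) and 0.83 ± 0.10 with DEGS1 siRNA (limma adjusted p = 0.00491), or 1.59-fold and 1.77-fold. Without the 3 arrays of weak 5' signal the DEGS1 difference was 0.66 (limma adjusted p = 0.132). The dimmer CDX2 probe set (231606_at) differed by 0.30 ± 0.17 and 0.52 ± 0.17 and was not called (limma adjusted p = 0.448 and 0.137). With the actin 3' minus 5' difference as a covariate it differed by 0.41 and 0.78 and was called in both comparisons (limma adjusted p = 0.0456 and 0.00957). As a description, the brighter probe set correlated with SI at r = 0.94 over the 9 arrays, which share their 3 scramble arrays as the low end of both genes.

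Of the disaccharidases besides SI, LCT rose in one silenced group alone by the test against scramble, and MGAM in neither. LCT, the lactase that splits milk sugar (chr2), read 5.58, 5.41 and 5.42 with SPTLC123 siRNA and 4.90, 4.66 and 4.86 with DEGS1 siRNA, against 4.62, 4.57 and 4.80 with scramble siRNA. The SPTLC123 arrays lay above all others, and the DEGS1 and scramble arrays overlapped. The rise with SPTLC123 siRNA was 0.80 ± 0.10 (1.74-fold, limma adjusted p = 0.00326), and the DEGS1 difference from scramble was 0.14 ± 0.10 (limma adjusted p = 0.486). Compared directly, LCT was lower with DEGS1 siRNA than with SPTLC123 siRNA by -0.66 ± 0.10 (limma adjusted p = 0.0107). That call was lost without the 3 arrays of weak 5' signal (-0.59, adjusted p = 0.2005) and without replicate 1 of SPTLC123 siRNA (-0.60, adjusted p = 0.0533).

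MGAM, maltase-glucoamylase (chr7), is a close relative of SI. It read 3.97, 3.81 and 4.22 with SPTLC123 siRNA and 3.89, 4.20 and 4.06 with DEGS1 siRNA, against 4.18, 4.59 and 4.30 with scramble siRNA. The groups overlapped, and no array reached 4.86, the median over all probe sets. The differences were -0.36 ± 0.14 and -0.31 ± 0.14 (limma adjusted p = 0.254 and 0.283), with 95% intervals of -0.68 to -0.03 and -0.63 to 0.02. A measured rise of the size seen for SI lies outside both, but signal near background limits what this probe set can show. With the actin 3' minus 5' difference as a covariate, MGAM was called lower with SPTLC123 siRNA (-0.43, limma adjusted p = 0.0437).

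None of the 9 peptidase probe sets was called by limma in either comparison with scramble (1 and 3 at an unadjusted p under 0.05), and part of the DPP4 and ANPEP values moved with the weak 5' signal. DPP4 (chr2), which trims peptide hormones and food peptides, has 3 probe sets. The brightest, 203717_at, differed by -0.29 ± 0.09 with SPTLC123 siRNA and -0.08 ± 0.09 with DEGS1 siRNA (limma adjusted p = 0.128 and 0.691), and its values overlapped between the arrays of weak and of normal 5' signal. The second, 203716_s_at, read 9.63, 9.72 and 8.86 with SPTLC123 siRNA and 10.01, 9.13 and 8.78 with DEGS1 siRNA, against 10.05, 9.93 and 9.97 with scramble siRNA. Its 3 low values are the 3 arrays of weak 5' signal, at 8.78 to 9.13 against 9.63 to 10.05 on the other 6. Without them it differed from scramble by 0.02 with DEGS1 siRNA. For 211478_s_at the same 3 arrays lay at 7.85 to 8.04, against 8.78 to 9.20 on the other 6. The differences of these 2 probe sets ranged from -0.54 to -0.85 and were not called (limma adjusted p from 0.202 to 0.488).

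ANPEP (chr15), aminopeptidase N, showed the opposite arrangement at its bright probe set. 202888_s_at read 7.95, 7.91 and 8.46 with SPTLC123 siRNA and 7.96, 8.66 and 8.70 with DEGS1 siRNA, against 7.90, 7.84 and 7.64 with scramble siRNA. The 3 arrays of weak 5' signal lay at 8.46 to 8.70, above the other 6 at 7.64 to 7.96, and the differences of 0.32 ± 0.22 and 0.65 ± 0.22 were not called (limma adjusted p = 0.56 and 0.147). Leaving out replicate 1 of DEGS1 siRNA, its single array of normal 5' signal, made ANPEP 202888_s_at (0.89) and the DPP4 probe sets 203716_s_at (-1.03) and 211478_s_at (-1.25) called against scramble. Without the 3 arrays of weak 5' signal, ANPEP 202888_s_at differed from scramble by 0.17 with DEGS1 siRNA, and DPP4 211478_s_at by -0.04. The other ANPEP probe sets were dimmer than 4.86, the median over all probe sets, and were not called. The part of the 5' signal in these values was not tested.

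**Figure D3:**
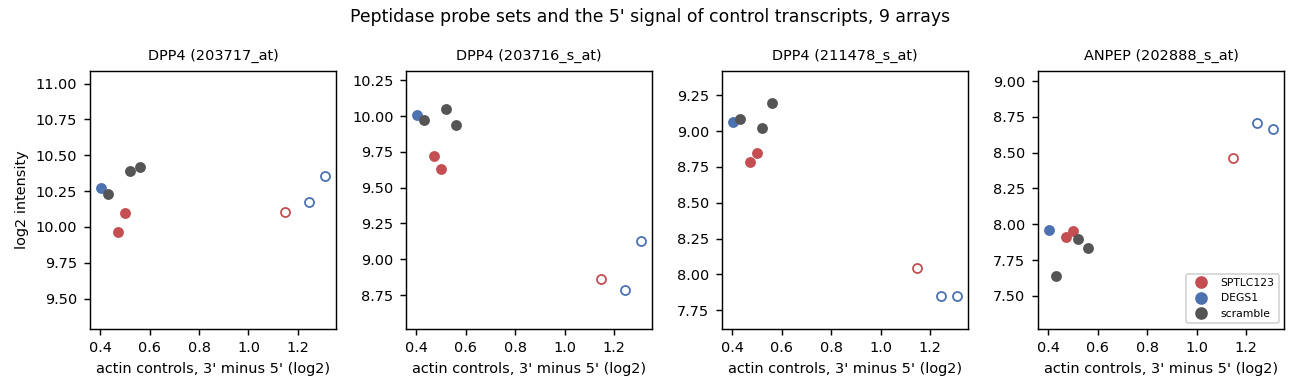
Log2 intensity of the 3 DPP4 probe sets and the brightest ANPEP probe set on each of the 9 arrays, against its actin 3' minus 5' difference, coloured by siRNA group, with open points for the 3 arrays of weak 5' signal. DPP4 203716_s_at and 211478_s_at are lower and ANPEP 202888_s_at is higher on those 3 arrays, while DPP4 203717_at overlaps.

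MEP1A (chr6), the alpha subunit of the metalloprotease meprin, read 9.69, 9.93 and 9.80 with SPTLC123 siRNA and 10.50, 10.20 and 10.27 with DEGS1 siRNA, against 10.09, 10.19 and 9.79 with scramble siRNA. The DEGS1 arrays lay above all others, and the SPTLC123 and scramble arrays overlapped. The differences from scramble were -0.22 ± 0.13 and 0.30 ± 0.13 (limma adjusted p = 0.483 and 0.244). DEGS1 siRNA minus SPTLC123 siRNA was 0.52 ± 0.13 (limma adjusted p = 0.0656). TMPRSS15 (chr21), the enteropeptidase that activates trypsinogen, differed by at most 0.16 from scramble at either of its probe sets and was not called.

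VIL1 (chr2), villin, is read by 4 probe sets. The brightest, 228912_at, read 8.29, 8.24 and 8.27 with SPTLC123 siRNA and 8.64, 8.90 and 8.94 with DEGS1 siRNA, against 8.40, 8.40 and 8.44 with scramble siRNA. None of these groups overlapped: DEGS1 siRNA was highest and SPTLC123 siRNA lowest. It rose by 0.41 ± 0.09 with DEGS1 siRNA (1.33-fold, limma adjusted p = 0.0487), and its difference with SPTLC123 siRNA was -0.14 ± 0.09 (limma adjusted p = 0.543). The DEGS1 call was lost without the 3 arrays of weak 5' signal (0.23, adjusted p = 0.615) and on leaving out any array except replicate 1 of DEGS1 siRNA (adjusted p from 0.0607 to 0.193). The other 3 probe sets differed from scramble by 0.16 to 0.36 with DEGS1 siRNA and by -0.35 to -0.10 with SPTLC123 siRNA, none called.

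In the direct comparison of the silenced groups 3 of the 18 probe sets (16.7%) were called, against 3.69% of all probe sets. LCT was lower with DEGS1 siRNA, as given above, and VIL1 was higher. VIL1 differed by 0.56 ± 0.09 at 228912_at and by 0.51 ± 0.12 at 1554945_x_at (limma adjusted p = 0.0145 and 0.0485). At 205506_at and 1554943_at it differed by 0.51 and 0.46 and was not called (limma adjusted p = 0.0632 and 0.132). Both VIL1 calls were lost without the 3 arrays of weak 5' signal (0.37 and 0.30, adjusted p = 0.344 and 0.516). The call at 228912_at was also lost without replicate 1 or 2 of SPTLC123 siRNA or replicate 2 or 3 of DEGS1 siRNA, at adjusted p from 0.0595 to 0.0701. That at 1554945_x_at was lost without any 1 array except replicate 1 of DEGS1 siRNA. LGALS4 (chr19), the galectin that carries glycoproteins to the apical surface, differed by -0.09 and 0.03 from scramble and by 0.12 between the silenced groups, with no call.

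The surroundings of SI were read from lists of 94 further intestinal and alpha-glucosidase genes, each gene by its brightest probe set. These were chosen by function, also with earlier results of these data known. Of all 19775 genes, 3.47% were called higher and 2.95% lower with SPTLC123 siRNA, and 2.63% higher and 2.53% lower with DEGS1 siRNA. The median difference over all genes was -0.03 with SPTLC123 siRNA and -0.01 with DEGS1 siRNA.

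The digestive machinery around SI gave few calls. None of 11 other brush-border hydrolases was called by limma in either comparison with scramble (3 and 2 at an unadjusted p under 0.05), with medians of -0.14 and -0.11. The brightest of them, PLB1, a phospholipase, and MME, neprilysin, differed by -0.17 each with SPTLC123 siRNA and by -0.20 and -0.07 with DEGS1 siRNA. None of 5 other alpha-glucosidases, most of which act in lysosomes or the secretory pathway, was called by limma (2 with SPTLC123 siRNA and 0 with DEGS1 siRNA at an unadjusted p under 0.05; medians -0.14 and 0.14). Their brightest, GANAB and MOGS, differed by -0.14 and -0.34 with SPTLC123 siRNA and by 0.47 and -0.10 with DEGS1 siRNA. Of 15 genes of microvillus structure, none was called by limma with SPTLC123 siRNA (4 at an unadjusted p under 0.05, median -0.11) and 1 with DEGS1 siRNA (median -0.09). That gene was PDZK1, an apical scaffold protein, which fell to 8.74, 8.28 and 8.36 with DEGS1 siRNA, against 9.09, 9.30 and 9.19 with scramble siRNA (-0.73, limma adjusted p = 0.0184). The PDZK1 call was lost without replicate 2 or 3 of DEGS1 siRNA or replicate 2 or 3 of scramble siRNA (adjusted p from 0.0731 to 0.0904), and without the 3 arrays of weak 5' signal (-0.45, adjusted p = 0.289).

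Among 18 absorptive transporters and receptors (medians -0.11 with SPTLC123 siRNA and -0.02 with DEGS1 siRNA), SLC26A3, the chloride-bicarbonate exchanger of the colon and ileum, alone was called. It read 7.91, 7.79 and 7.07 with SPTLC123 siRNA and 7.12, 6.81 and 5.88 with DEGS1 siRNA, against 6.19, 5.90 and 5.71 with scramble siRNA. The SPTLC123 arrays lay above scramble without overlap, by 1.66 ± 0.32 (limma adjusted p = 0.0223), and the DEGS1 arrays overlapped scramble. This call was lost without replicate 1 or 2 of SPTLC123 siRNA or without any scramble array, at 1.49 to 1.78 and adjusted p from 0.0505 to 0.0944. A dim second probe set of SLC26A3 differed by 0.14 with SPTLC123 siRNA and was not called (limma adjusted p = 0.664).

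Other enterocyte markers gave 3 of 14 called higher with SPTLC123 siRNA (median 0.08) and 1 of 14 with DEGS1 siRNA (median -0.03), none lower. GUCY2C, the receptor for guanylin, rose in both. It read 9.15, 9.30 and 9.38 with SPTLC123 siRNA and 9.15, 9.36 and 9.30 with DEGS1 siRNA, against 8.46, 8.50 and 8.34 with scramble siRNA. The rise was 0.84 in each comparison (limma adjusted p = 0.00198 and 0.00366), with no overlap of silenced and scramble arrays. MUC13, a membrane mucin of the brush border, read 8.27, 8.51 and 8.15 with SPTLC123 siRNA and 7.19, 7.13 and 7.08 with DEGS1 siRNA, against 6.99, 6.91 and 6.89 with scramble siRNA. It rose with SPTLC123 siRNA by 1.38 ± 0.10 (limma adjusted p = 0.00025) and was lower with DEGS1 siRNA than with SPTLC123 siRNA by -1.18 (limma adjusted p = 0.000675). A second MUC13 probe set differed by 1.30 with SPTLC123 siRNA and was not called (limma adjusted p = 0.0637), and by -1.81 between the silenced groups (limma adjusted p = 0.0202). TM4SF20, a membrane protein of the tetraspanning L6 family, rose by 0.92 with SPTLC123 siRNA (limma adjusted p = 0.043) and was -1.04 lower with DEGS1 siRNA than with SPTLC123 siRNA (limma adjusted p = 0.0309). Like LCT, MUC13 and TM4SF20 were thus called higher with SPTLC123 siRNA against both other groups. The TM4SF20 calls were lost without replicate 1 of SPTLC123 siRNA, replicate 2 or 3 of DEGS1 siRNA or any scramble array (adjusted p from 0.0521 to 0.1355), and those of MUC13 at this probe set in no setting at this threshold. Without the 3 arrays of weak 5' signal, the GUCY2C difference with DEGS1 siRNA was 0.72 (adjusted p = 0.0972) and that of TM4SF20 between the silenced groups -1.16 (adjusted p = 0.103), neither called.

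Gut transcription factors gave 2 of 17 called higher with SPTLC123 siRNA (median 0.21) and 5 of 17 with DEGS1 siRNA (median 0.36). None was called lower by its brightest probe set. ISX, an intestine-specific homeobox factor, rose by 0.51 with SPTLC123 siRNA and 0.68 with DEGS1 siRNA (limma adjusted p = 0.0407 and 0.0158). KLF5, a zinc-finger factor of crypt cells, rose by 0.88 and 0.96 (limma adjusted p = 0.0197 and 0.0182). With DEGS1 siRNA RFX6, FOXA1 and GATA6, factors of endoderm development, also rose, by 1.96, 0.75 and 0.62 (limma adjusted p = 0.0137, 0.0153 and 0.0257). A second, dimmer GATA6 probe set differed the other way (-0.37, limma adjusted p = 0.127). Second probe sets of KLF5 (0.76 and 0.54, limma adjusted p = 0.11 and 0.237) and, with DEGS1 siRNA, of FOXA1 (1.45, limma adjusted p = 0.148) lay in the same direction and were not called. For MAF, another factor of this list, a second probe set was called lower with SPTLC123 siRNA (-0.65, limma adjusted p = 0.0339). The brightest MAF probe set differed by -0.22 there and was not called (limma adjusted p = 0.308). The ISX and KLF5 calls with SPTLC123 siRNA were lost on leaving out any of 7 and of 4 arrays, replicates 1 and 3 of SPTLC123 siRNA and 2 of scramble siRNA among both (adjusted p from 0.0509 to 0.136). Each of the 5 DEGS1 calls was lost without replicate 3 of DEGS1 siRNA and without 3 or 4 further arrays (adjusted p up to 0.116). RFX6 read 6.78, 6.84 and 7.38 with DEGS1 siRNA, against 4.71, 4.78 and 5.63 with scramble siRNA. Without the 3 arrays of weak 5' signal, no listed gene was called by limma with DEGS1 siRNA (23 of 106 at an unadjusted p under 0.05). RFX6 then differed by 1.74, FOXA1 by 0.69 and KLF5 by 0.66 (limma adjusted p = 0.156, 0.091 and 0.203), and ISX by 0.54 and GATA6 by 0.43 (limma adjusted p = 0.268 and 0.287). The ISX difference with SPTLC123 siRNA was then 0.45 (limma adjusted p = 0.0925).

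**Figure D4:**
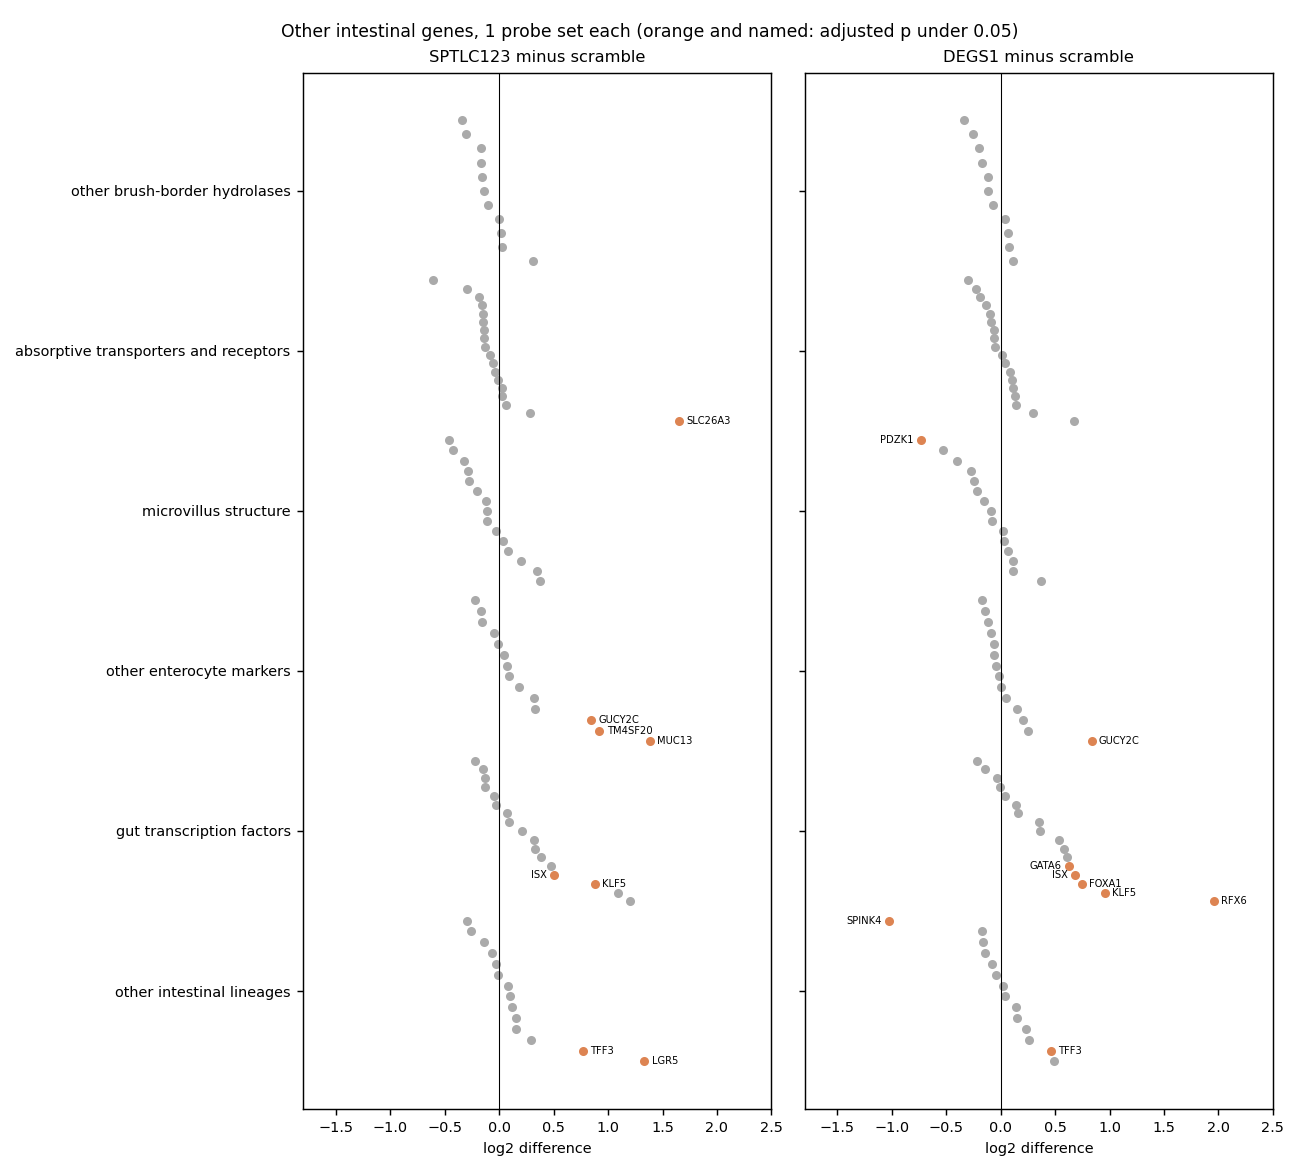
Log2 differences of 6 lists of other intestinal genes against scramble, 1 point per gene by its brightest probe set, ordered by difference within a list. Orange, named points have adjusted p under 0.05. Among gut transcription factors with DEGS1 siRNA the median is 0.36 and many genes lie above 0.5. Most genes of the other lists lie within 0.5 of zero.

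Of 14 markers of other intestinal lineages, which mark goblet, Paneth, endocrine and stem cells, 2 were called higher with SPTLC123 siRNA (median 0.09), and 1 higher and 1 lower with DEGS1 siRNA (median 0.03). TFF3, a goblet cell peptide, rose by 0.77 and 0.46 (limma adjusted p = 0.00414 and 0.0492), and LGR5, a stem cell receptor, rose by 1.33 with SPTLC123 siRNA (limma adjusted p = 0.00676). A second LGR5 probe set differed by 0.75 and was not called (limma adjusted p = 0.205). SPINK4, a goblet cell protease inhibitor, fell by 1.03 with DEGS1 siRNA (limma adjusted p = 0.0181). The DEGS1 calls of TFF3 and SPINK4 were lost on leaving out any of 7 and of 4 arrays, replicates 2 and 3 of DEGS1 siRNA among both (adjusted p from 0.0539 to 0.154). Without the 3 arrays of weak 5' signal these differences were 0.52 and -1.03 (adjusted p = 0.318 and 0.172), not called. The summed intensity of the list was 8532.2 to 9529.7 with SPTLC123 siRNA and 6364.9 to 7176.3 with DEGS1 siRNA, against 6493.3 to 7570.5 with scramble siRNA. LYZ, the lysozyme of Paneth cells, made up 90.5% to 93.1% of each sum and was not called (0.29 and -0.08, limma adjusted p = 0.172 and 0.704). The other 13 summed to 720.4 to 820.9 with SPTLC123 siRNA and 573.6 to 615.9 with DEGS1 siRNA, against 513.6 to 539.5 with scramble siRNA.

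Of 12 hepatocyte genes, 5 were called lower with SPTLC123 siRNA (median -0.35) and 4 with DEGS1 siRNA (median -0.24), none higher. HP, haptoglobin, fell by 1.12 and 1.02, and HPX, hemopexin, fell by 0.88 and 0.98 (limma adjusted p from 0.00371 to 0.00891). TTR, APOA1 and TF, which encode plasma carrier proteins, also fell with SPTLC123 siRNA, and APOA2 and APOH, which encode apolipoproteins, with DEGS1 siRNA. The calls of these last 5 were each lost on leaving out any of 3 to 8 arrays (adjusted p from 0.0509 to 0.159), while those of HP and HPX held without any 1 array. Without the 3 arrays of weak 5' signal, the SPTLC123 calls of APOA1 and TF were lost (-0.44 and -0.39, adjusted p = 0.0623 and 0.103). The DEGS1 calls of HP, HPX, APOA2 and APOH were then lost too, at -1.05, -0.81, -0.43 and -0.50 (adjusted p = 0.0676, 0.0834, 0.261 and 0.387). Second probe sets of TF (-0.33) and APOH (-0.41) were not called in these comparisons (limma adjusted p = 0.0596 and 0.162). Dimmer TF probe sets differed by -0.26 and 0.24 with SPTLC123 siRNA and were not called (limma adjusted p = 0.596 and 0.786). For APOA1, a further probe set was called lower with SPTLC123 siRNA (-0.46, limma adjusted p = 0.0198) and a dimmer one was not called (-0.15, limma adjusted p = 0.559). ALB and AFP were called in neither comparison. The summed intensity of the list was 94573.6 to 100770.4 with SPTLC123 siRNA and 101071.2 to 108063 with DEGS1 siRNA, against 113736.4 to 120743.3 with scramble siRNA. In bulk RNA, fewer cells of a kind and less RNA per cell cannot be told apart, and the part of this shift in the values of SI and CDX2 was not tested.

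Between the silenced groups, 7 of all 106 listed genes (6.6%) were called, against 5.37% of all genes. Beside MUC13 and TM4SF20, the gut factors MAF and CREB3L3 were higher with DEGS1 siRNA than with SPTLC123 siRNA, by 0.58 and 0.49 (limma adjusted p = 0.0155 and 0.0331). The second MAF probe set, called lower with SPTLC123 siRNA against scramble, was also called here (0.78, limma adjusted p = 0.019). The remaining, dim MAF probe sets differed by -0.27 to 0.80 and were not called (limma adjusted p from 0.17 to 0.924). Of hepatocyte genes, FGB, which encodes a fibrinogen chain, and APOA1 were higher by 0.79 and 0.67, and APOA2 was lower by -0.33. A second FGB probe set differed by 0.02 (limma adjusted p = 0.987). Of the 7 genes, each by its brightest probe set, the calls of MUC13 and APOA1 held without any 1 array. The other 5 were each lost without any of 3 to 8 arrays. Without the 3 arrays of weak 5' signal only MUC13 was called (-1.19, adjusted p = 0.0218). APOA1 then differed by 0.52, MAF by 0.41 and CREB3L3 by 0.59 (adjusted p = 0.201, 0.351 and 0.207), and FGB by 0.79 and APOA2 by -0.30 (adjusted p = 0.306 and 0.485).

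Genes that followed SI over the 9 arrays were sought only among those whose group means spanned at least 1. The brightest probe set of every other member spanned less, so no member could be named here. CDX2 (r = 0.94 with SI) was left out in this way, as was GUCY2C (r = 0.97). Among 556 genes whose group means spanned at least 1, 61 correlated with SI above r = 0.9, and the 8 highest are named as a description, since the gap between scramble and silenced arrays fixes much of r. MAOB, a mitochondrial amine oxidase, had r = 0.996 and differences of 1.42 and 1.29 for SPTLC123 and DEGS1 siRNA. PIP4K2A, a phosphoinositide kinase, had r = 0.995 and differences of 1.59 and 1.55. MET, the receptor for hepatocyte growth factor, had r = 0.991 and differences of 2.01 and 1.81. The others were H2BC12, a histone gene, ATP9A, a P4-type ATPase, MEX3D, an RNA-binding protein, MTCL1, a microtubule crosslinker, and SBNO1, with r from 0.978 to 0.991 and differences from 1.02 to 1.51. SI itself differed by 3.13 and 3.07, above all 8.

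**Figure D5:**
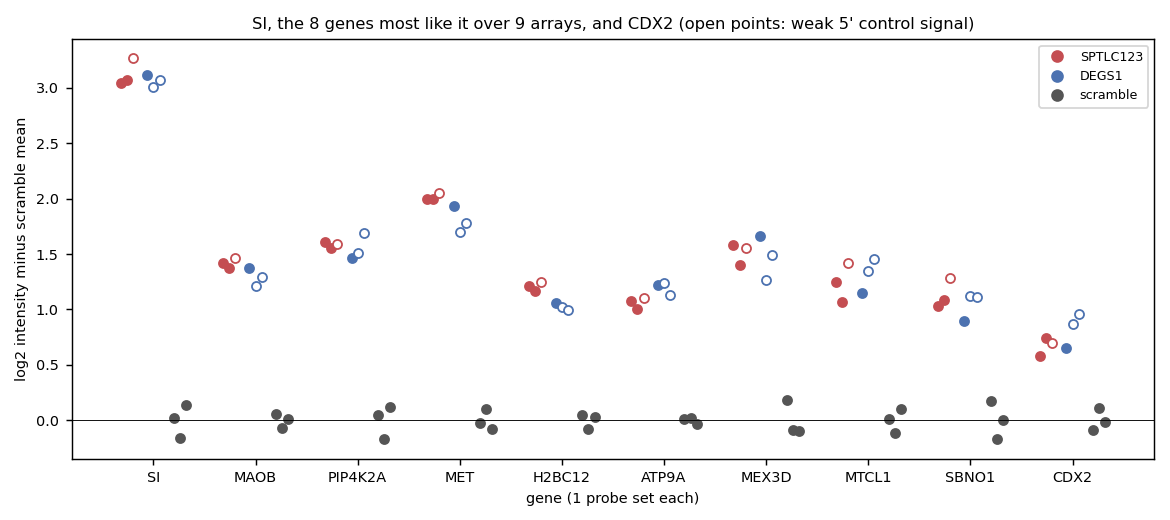
Log2 intensity minus the scramble mean on each of the 9 arrays for SI, the 8 genes with the highest Pearson r to SI, and CDX2, by siRNA group, with open points for the 3 arrays of weak 5' signal. In every gene shown the 6 silenced arrays lie above the 3 scramble arrays, with SI near 3 and CDX2 below 1.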

How the data were processed

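The deposited table holds 1 normalized, linear intensity for each probe set on each array. Per the submitters' processing notes, RMA, GCRMA 2.12.1 and limma 2.14.7 were used, and whether RMA or GCRMA made the values is not given in the sources used here. Values ran from 4.88 to 27330.59, with array medians from 27.92 to 30. Arrays have no read depth, and 3 arrays per group limit the precision. Values were log2-transformed with no pseudocount. Of 54675 probe sets, 62 controls were left out; 41091 had 1 gene symbol in the platform annotation, 1801 had several and 11721 were not listed there.

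The 9 arrays entered 1 linear model with a mean for each group (limma 3.58.1, R 4.3.3, lmFit and eBayes with 6 residual degrees of freedom, two-sided tests). Listed genes were read from this fit by their 1-symbol probe set of highest mean. The fit was tested on simulated data. The members and lists were chosen with earlier results of these data known. The text names all members, the silenced genes and the 8 genes most correlated with SI. Of each list it names called genes (up to 4 per comparison by adjusted p, otherwise the 2 of highest level). Beyond this rule, GATA6 and a called hepatocyte gene over that limit were named, to complete their lists. LYZ, ALB and AFP were named though not called. Same-numbered replicates were not treated as pairs in this fit: their deviations correlated at -0.49 to 0.70, 3 of 9 above 0.1. Replicate 3 of SPTLC123 siRNA and replicate 2 of DEGS1 siRNA, both of weak 5' signal, correlated at 0.60. These correlations therefore cannot show whether replicates of the same number were handled together.

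Alternatives were a filter on dim probe sets, 1 probe set per gene, quantile normalization, median centring, an offset of 16, a trended robust eBayes (statmod 1.5.0), array weights, a fit on the 2 groups of a comparison alone, an adjusted p under 0.01, the replicate block, the actin difference as a covariate, and leaving out each array or the 3 of weak 5' signal.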

Additional observations from a re-analysis of the deposited data

Results flagged for a closer look

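In 3 member probe sets the effect of DEGS1 siRNA differed from that of SPTLC123 siRNA by the test of the difference itself, DEGS1 siRNA minus SPTLC123 siRNA. LCT 206945_at differed by -0.66, VIL1 228912_at by 0.56 and VIL1 1554945_x_at by 0.51 (limma adjusted p = 0.0107, 0.0145 and 0.0485). Without the 3 arrays of weak 5' signal these differences were -0.59, 0.37 and 0.30, with 1 DEGS1 array left. Each of the 3 calls was also lost on leaving out some single arrays, as given above. The causes of these differences were not tested.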

How the results depend on the processing

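Of 1155 values of single probe sets of the 10 genes over 21 settings, 1054 kept their direction and side of the threshold. SI, which was not tested, counted as kept where its direction held and it moved by less than the larger SD of the groups compared. Of the rest, 33 uncalled or untested values in 10 probe sets turned their direction, 42 lost a call, 23 gained one and 3 moved. These 3 were all of SI, with the offset of 16 (2.37 and 2.32) and, between the silenced groups, without the 3 arrays of weak 5' signal (0.06). No called value turned its direction. The counts of calls moved more; the cause was not tested, beyond fewer arrays, fewer genes or a stricter threshold where the setting is that. With SPTLC123 siRNA, 2466 probe sets and 13 listed genes were called, and at adjusted p under 0.01 these were 907 and 6. The actin covariate gave 4591 probe sets and 4 of the 18 member probe sets, 3 of them higher. The added member calls were MGAM, lower (-0.43, limma adjusted p = 0.0437), and CDX2 231606_at, higher (0.41, limma adjusted p = 0.0456). Leaving out 1 array gave 1166 to 3100 probe sets, 2 members in each case and 7 to 17 listed genes. With DEGS1 siRNA, 1869 probe sets, 2 members and 13 listed genes were called. These were 859, 1 and 7 in the fit on only the 2 groups, 10150, 6 and 23 with array weights, 450, 1 and 3 at adjusted p under 0.01, and 193, 0 and 0 without the 3 arrays of weak 5' signal. Quantile normalization, median centring and trended robust eBayes left 1 member. Leaving out 1 array gave 491 to 9061 probe sets, 1 to 6 members and 3 to 23 listed genes. Between the silenced groups, 2017 probe sets, 3 members and 7 listed genes were called. These were 993, 1 and 3 in the fit on only the 2 groups, 9884, 7 and 22 with array weights, 600, 0 and 2 at adjusted p under 0.01, 3509, 5 and 13 with the actin covariate, and 341, 0 and 1 without the 3 arrays. Leaving out dim probe sets gave 5 members and 1 probe set per gene 12 listed genes. Leaving out 1 array gave 722 to 7151 probe sets, 0 to 4 members and 2 to 14 listed genes. With the replicate block, the probe sets called were 2194, 1512 and 1672 in the 3 comparisons, and the members 2, 1 and 2. Median centring moved the share called higher from 58.3% to 69.4% for SPTLC123 siRNA and from 42.7% to 31.7% between the silenced groups. Signal near background limits MGAM, LCT, TMPRSS15 and the dim probe sets of ANPEP and CDX2.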
